A study of Homo sapiens with 16 samples.

Results

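The MYC and MYB transcription network was described here through 10 genes, MYC, MYCN, MAX, MXD1, MXD3, MXD4, MNT, MYB, MYBL1 and MYBL2, chosen by gene name among the 60357 genes of the count tables. All 10 reached at least 600 reads in total over the 12 in vitro libraries, as did 15863 genes in all. RNA was sequenced from Kasumi-1 and SKNO-1, 2 acute myeloid leukaemia (AML) lines with the translocation t(8;21), which joins RUNX1 to RUNX1T1 (also called ETO) and produces the fusion RUNX1/ETO. Cells received 2 µg/ml of lipid nanoparticles (LNPs) for 24 h, were washed and were harvested on day 3. The LNPs carried either siRE-mod, a chemically modified siRNA against the fusion, or siMM-mod, its mismatch control, so every library came from LNP-treated cells and SKNO-1 was grown with GM-CSF. Each line has 3 libraries labelled siMM-mod and 3 labelled siRE-mod, and nothing in the labels says whether the 3 were separate cultures, so p-values measure the spread between libraries, which may be technical. A further 4 libraries, 2 per siRNA, came from Kasumi-1 cells grown in RG mice given repeated LNP doses.

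MYC and its relative MYCN are basic helix-loop-helix leucine zipper factors that bind E-boxes as heterodimers with MAX and activate genes of ribosome production, translation and metabolism. MXD1, MXD3, MXD4 and MNT compete with them for MAX and repress the same kind of site. MYB, which keeps haematopoietic progenitors immature and is needed by many AML cells, belongs to a separate family with MYBL1 and MYBL2. MYBL2 works with the MuvB complex and FOXM1 on genes used late in the cell cycle.

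The libraries did not fall out by their labels. CD34, a surface marker of immature blood cells, was at 121 to 398 CPM (counts scaled to a common number of reads on genes, as deposited) in 6 libraries and at 0.117 to 0.695 CPM in the other 6. IL5RA, an interleukin receptor chain, showed the opposite order, with at most 0.184 CPM in the CD34-high set and 36.4 to 70.4 CPM in the CD34-low set. The CD34-high set held 1 library labelled siRE-mod and the CD34-low set 5, and both sets held libraries labelled Kasumi-1 and SKNO-1. RUNX1T1, whose reads include those of the fusion transcript, then split each set into 3 higher and 3 lower libraries. In the CD34-high set RUNX1T1 was at 254 to 309 CPM against 79.2 to 134 CPM, and in the CD34-low set at 150 to 174 CPM against 41.3 to 52.7 CPM. Of the 6 lower libraries, 4 were labelled siRE-mod and 2 siMM-mod. Libraries were kept in the groups their labels give, and whether any label is wrong was not tested, so each fold change by label below compares libraries labelled siRE-mod with libraries labelled siMM-mod. Since CD34 and RUNX1T1 are measured values, the values by CD34 and RUNX1T1 are given as a description without a test or a mean.

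In the CD34-high set, the libraries with higher RUNX1T1 carry the labels Kasumi-1 siMM-mod replicate 1 and SKNO-1 siMM-mod replicates 1 and 2, and the lower ones Kasumi-1 siMM-mod replicate 2, SKNO-1 siMM-mod replicate 3 and SKNO-1 siRE-mod replicate 1. In the CD34-low set, the higher ones were labelled Kasumi-1 siMM-mod replicate 3, Kasumi-1 siRE-mod replicate 2 and SKNO-1 siRE-mod replicate 2, and the lower ones Kasumi-1 siRE-mod replicates 1 and 3 and SKNO-1 siRE-mod replicate 3. Values of 3 libraries below follow these orders. For 11 of 12 libraries, the 2 most correlated libraries over the genes with at least 600 reads were the other 2 of its own 3. Kasumi-1 siMM-mod replicate 2 was the exception. Its 3 most correlated libraries were those with higher RUNX1T1 in the CD34-high set (r of 0.979, 0.978 and 0.977). Counts of low against high RUNX1T1 in the CD34-high set, and some members, are therefore also given without it (2 against 3 libraries). Counts over both sets, and ratios unless stated, are given with it. Depth ran from 60559466 to 147990959 reads on genes with a median of 89160101, and no pair of 22 checked held the same library. Of the myeloid markers, MPO, ELANE and KIT were detected in all 12 libraries. Of 14 markers of other cells, EPCAM was at 80.0 to 88.9 CPM in the CD34-high set and at most 0.01 CPM in the CD34-low set, PECAM1 was at 2.34 to 18.4 CPM and VWF reached 3.27 CPM, while the others stayed at or below 0.56 CPM. The part of these markers in the results below was not tested.

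The network was led by MYB, MYC and MYBL2. Per exon length, in deposited FPKM (CPM also divided by the length of the exons), the medians over 12 libraries were 120 for MYB, 97.1 for MYC and 64.6 for MYBL2, above 96.4% of the genes with at least 600 reads or more. MAX followed with a median FPKM of 11.4, MXD4 with 4.60, MXD1 with 4.12, MXD3 with 1.98 and MNT with 1.46. MYCN had a median FPKM of 0.577 and MYBL1 of 0.104. Not every step in this order was larger than the spread: MYB was above MYC in 8 of 12 libraries, MYC above MYBL2 in 9 and MXD4 above MXD1 in 6. MYBL2 was above MAX, MAX above MXD4 and MXD1 above MXD3 in all 12 libraries, without overlap of their ranges.

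**Figure D1:**
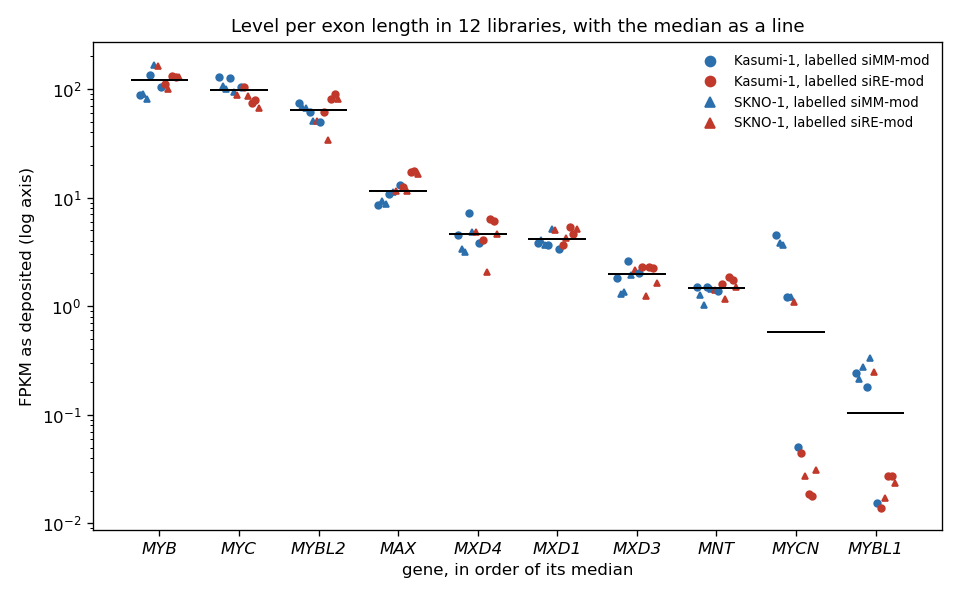
FPKM as deposited (log axis) of the 10 genes, in order of their medians (lines), with 1 point per in vitro library; circles are Kasumi-1, triangles SKNO-1, blue siMM-mod and red siRE-mod labels. MYB, MYC and MYBL2 lie highest, and MYCN and MYBL1 split into 2 clouds of 6 libraries.

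Some of these counts could hold reads of neighbours. On GRCh38, MXD3 (chromosome 5, 177301461 to 177312757, minus strand) shares 40.2% of its exonic bases with PRELID1 and RAB24, and MAX (chromosome 14, 65006174 to 65102695, minus strand) shares 16.1%, mostly with FNTB. MYB (chromosome 6, 135181308 to 135219173, plus strand) shares 1.87% with its antisense gene, and MYC (chromosome 8, 127735434 to 127742951, plus strand) and MYBL2 (chromosome 20, 43667019 to 43716495, plus strand) share none. How strand was handled in counting is not given in the sources used here.

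In these bulk samples, fewer cells of a type and less RNA per cell cannot be told apart. MYC differed by RUNX1T1 most plainly in the CD34-low set. There it was at 480, 473 and 398 CPM in the 3 higher-RUNX1T1 libraries and at 343, 359 and 304 CPM in the 3 lower ones. The 2 groups did not overlap, and the lowest of the first was 1.11 times the highest of the second. In the CD34-high set MYC was at 593, 485 and 457 CPM with higher RUNX1T1 and at 583, 433 and 407 CPM with lower RUNX1T1. These overlapped through the value of 583 CPM, which belongs to the library that stands apart, and without that library they did not.

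MYCN followed CD34. It was at 11.8, 9.95 and 9.49 CPM in the CD34-high libraries with higher RUNX1T1 and at 3.18, 3.17 and 2.89 CPM in those with lower RUNX1T1. Across the CD34-low set it lay between 0.0463 and 0.132 CPM, from 4 to 14 reads per library, so no order within that set can be read at this depth. Each CD34-high library was at least 21.9 times above each CD34-low one. MYCN is normally a factor of embryonic and neural tissue that can stand in for MYC.

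MAX was higher where RUNX1T1 was lower in both sets. It was at 53.2, 58.3 and 54.9 CPM against 68.0, 71.0 and 71.6 CPM in the CD34-high set. Among CD34-low libraries it was at 81.9, 78.3 and 71.5 CPM against 106, 110 and 104 CPM. Neither pair of groups overlapped, as deposited or after division by TMM factors or DESeq2 size factors. In the CD34-low set, however, the gap nearly closed after scaling. The highest value with higher RUNX1T1 and the lowest with lower RUNX1T1 were then 87.5 and 89.5 CPM (TMM), or 87.4 and 87.6 CPM (size factors). The size of the CD34-low difference in MAX thus depends on the scaling.

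Of the repressors, MXD4 was at 31.3, 22.9 and 21.6 CPM against 49.6, 33.0 and 33.4 CPM in the CD34-high set. Among CD34-low libraries it was at 26.3, 27.7 and 14.1 CPM against 43.2, 41.9 and 31.9 CPM. Both pairs stood apart as deposited, but with TMM-scaled CPM the first pair overlapped and only the CD34-low pair did not. MXD1 was at 24.1, 25.6 and 23.2 against 23.4, 32.6 and 31.8 CPM in the CD34-high set, where it overlapped as deposited and not after TMM scaling, and without Kasumi-1 siMM-mod replicate 2 it did not overlap under any of the 3 scalings. MXD1 among CD34-low libraries was at 21.2, 23.4 and 26.7 against 34.3, 29.4 and 32.7 CPM, which did not overlap as deposited and did after TMM scaling. MXD3 was at 9.32, 6.60 and 6.99 against 13.5, 10.0 and 11.1 CPM in the CD34-high set, a separation lost after TMM scaling, and at 10.4, 11.8 and 6.36 against 11.8, 11.5 and 8.45 CPM in the CD34-low set, with overlap. Without Kasumi-1 siMM-mod replicate 2, MXD3 and MXD4 of the CD34-high set likewise stood apart as deposited and overlapped after TMM scaling. MNT overlapped in both sets, with 8.92 to 16.0 CPM over the 12 libraries.

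MYB stood highest in the CD34-high libraries with lower RUNX1T1. It was at 486, 493 and 441 CPM with higher RUNX1T1 and at 740, 921 and 901 CPM with lower RUNX1T1, where the lowest of the second group was 1.50 times the highest of the first. This gap held under both other scalings and was 1.83 times without the library that stands apart. Among CD34-low libraries MYB was at 570, 617 and 546 CPM against 717, 708 and 709 CPM. These did not overlap as deposited, but they did after TMM or size factor scaling, so the CD34-low difference in MYB depends on the scaling.

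MYBL2 went opposite ways in the 2 sets. With higher against lower RUNX1T1 it was at 207, 187 and 187 against 172, 139 and 139 CPM in the CD34-high set and at 138, 171 and 94.4 against 225, 252 and 224 CPM in the CD34-low set. The CD34-low groups did not overlap under any of the 3 scalings. The CD34-high groups overlapped after TMM scaling, and did not overlap under any scaling once the library that stands apart was left out. MYBL1, which is best known from germ cells, was at 1.32 to 2.43 CPM in the CD34-high set and at 0.101 to 0.197 CPM in the CD34-low set, each CD34-high value at least 6.68 times above each CD34-low value. It rested on 11 to 25 reads per library in the CD34-low set.

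Counted over the 10 genes, 2 (MYCN and MYBL1) were higher in every CD34-high than in every CD34-low library and 0 were lower. MYCN had 3102 of its 3157 reads and MYBL1 797 of its 894 reads in the CD34-high set, so both reached 600 reads only through the libraries where they were high, and nothing is read from their count against the 11.3% higher and 21.6% lower of 15863 genes. Between low and high RUNX1T1 in the CD34-high set, 4 were higher (16.6% of 12845 genes) and 2 lower (19.9%). In the CD34-low set, 8 of the 10 had at least 600 reads, of which 5 were higher (34.7% of 13783 genes) and 1 lower (15.8%), and over all 10 it was 6 and 1. The genes without overlap in the same direction in both sets were MAX, MXD4 and MYB, 3 of the 8, against 7.73% of 12142 genes, 0 were lower in both (5.49%), and MYBL2 was the 1 with opposite directions (9.42%). After TMM scaling, which was added once the deposited values had been seen, only MAX was left of these 3 (6.09%), 0 genes were lower in both sets (7.74%), 0 had opposite directions (7.97%), and the counts of higher and lower genes became 3 and 1 in the CD34-high set (17.6% and 23.4%). Those of the CD34-low set became 4 and 1 over all 10 genes (24% and 22.3% of genes with at least 600 reads), with the low-count MYBL1 among the higher. The 2 genes higher with CD34 stayed 2 under this scaling (15.6% higher and 17.5% lower). Without the library that stands apart, the CD34-high set gave 5 higher and 3 lower genes as deposited (44.3% and 28.8% of 12384 genes, 2 against 3 libraries), and 3 and 3 after TMM scaling (32.3% and 45.8%).

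A ratio of 2 genes within a library does not depend on how libraries are scaled. MYB over MYC, as a ratio of CPM, was 0.82, 1.02 and 0.97 in the CD34-high libraries with higher RUNX1T1 and 1.27, 2.13 and 2.22 in those with lower RUNX1T1. For the CD34-low libraries it was 1.19, 1.30 and 1.37 against 2.09, 1.97 and 2.33. The ratio was thus higher in each low-RUNX1T1 library than in each high-RUNX1T1 library of its own set. MYC over MAX, as a ratio of FPKM, was 8.01, 8.25 and 7.61 against 4.40, 4.44 and 4.0 in the CD34-low set, while in the CD34-high set it overlapped (15.2, 11.4 and 11.4 against 11.7, 8.32 and 7.75). This overlap came through the 11.7 of Kasumi-1 siMM-mod replicate 2, and without that library the CD34-high groups did not overlap. MYC over the summed FPKM of MXD1, MXD3, MXD4 and MNT was 11.1, 10.7 and 10.9 against 8.46, 7.10 and 6.61 in the CD34-high set. For the CD34-low libraries it was 9.94, 8.91 and 10.0 against 4.73, 5.33 and 5.14. MYC was thus lower relative to the sum of these repressors in the low-RUNX1T1 libraries of both sets. MXI1, a further repressor, is not in that sum and was itself lower with lower RUNX1T1 in both sets. Whether the order holds with MXI1 added was not tested. All ratios are of transcripts, and nothing here measured protein.

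**Figure D2:**
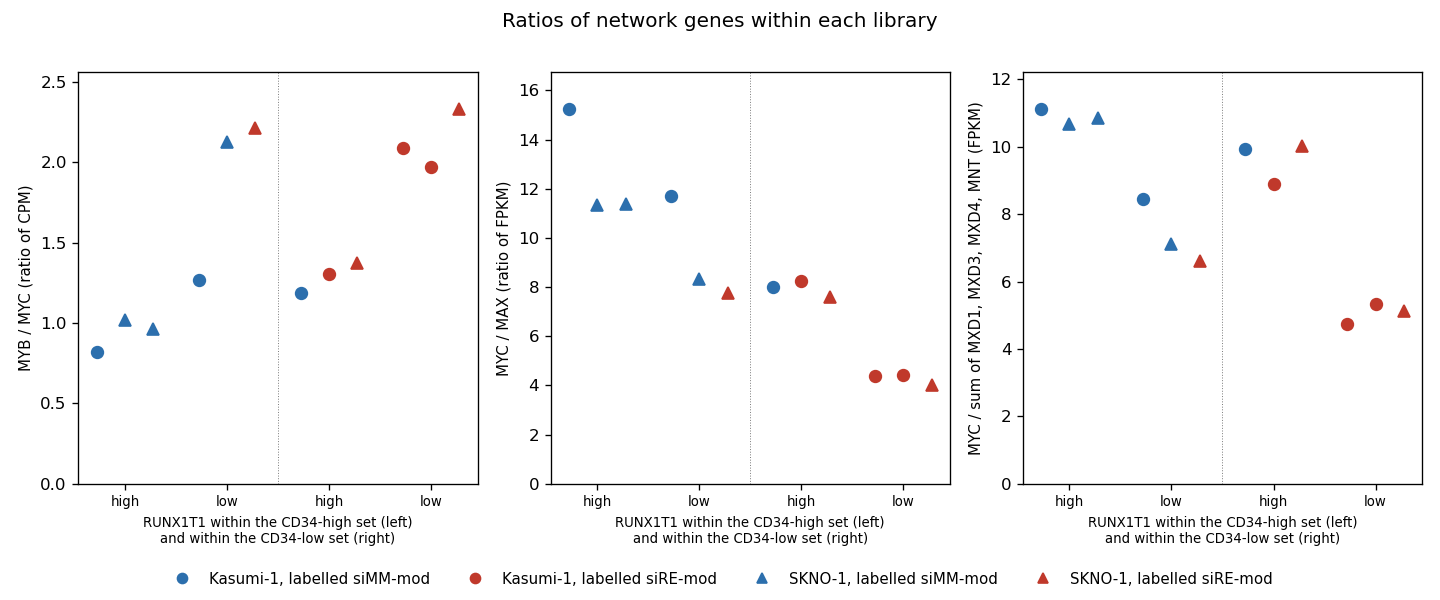
Ratio of MYB to MYC (CPM), MYC to MAX (FPKM) and MYC to the summed repressors (FPKM) in each library, grouped by RUNX1T1 within the CD34-high (left) and CD34-low set (right). MYB over MYC is higher, and MYC over the summed MXD1, MXD3, MXD4 and MNT lower, in each low-RUNX1T1 library than in the high-RUNX1T1 libraries of its set.

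Short stretches of promoter are shown as examples of 2 motifs, an E2F-type sequence in MYB, MYBL2 and MAX and the E-box that MYC and its repressors share in MXD4 and MNT. The stretches were chosen with the values known, and no tie between a motif and a direction is drawn. MYC and MYBL1 were not part of the search. RefSeq promoters (GRCh38.p14, 250 bases before to 50 after the start) of 8 of the 10 genes were searched on both strands for GGCGGGA (held by 15.4% of 35116 promoters), for CACGTG (held by 7.26%) and for the RUNX-type TGNGGT (held by 43.2%). GGCGGGA was also in MYCN, which was lower with lower RUNX1T1 in the CD34-high set, and in MNT, which overlapped, but not in MXD4. CACGTG was also in MYBL2. Of the 8 genes only MXD3 held TGNGGT, and MXD1 and 1 of the 2 MAX promoters held none of the 3 motifs. The capitals mark the match, which is a description of the letters and not a binding site.
MYB, chr6:135181239-135181268, plus strand, match at -58 from the start: gcgccagatttGGCGGGAgggggagtgtcc
MYBL2, chr20:43667064-43667093, plus strand, match at -39: ccgacgcgcttGGCGGGAgatagaaaagtg
MAX, chr14:65101726-65101755, minus strand, match on the other strand at -60: ctgctaccggaTCCCGCCgagggtggaagg
MXD4, chr4:2262330-2262359, minus strand, match at -238: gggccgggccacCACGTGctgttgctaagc
MNT, chr17:2401236-2401265, minus strand, match at -193: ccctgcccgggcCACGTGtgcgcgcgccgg

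Most of the listed genes that MYC activates were lower with lower RUNX1T1 in the CD34-high set. Of 32 nucleolar, translation and metabolic genes, 26 were lower without overlap and 0 higher as deposited (19.9% and 16.6% of all genes), and 24 were lower and 0 higher after TMM scaling (23.4% and 17.6%). Without Kasumi-1 siMM-mod replicate 2, 30 were lower and 1 higher as deposited (28.8% and 44.3% of all genes) and 31 and 1 after TMM scaling (45.8% and 32.3%). NPM1, a nucleolar chaperone, was at 3103 to 3247 against 2271 to 2435 CPM, and NCL, nucleolin, at 1016 to 1146 against 799 to 826 CPM. For the CD34-low set the list had 15 higher and 4 lower genes as deposited (34.7% and 15.8% of all genes), and 8 higher and 3 lower after TMM scaling (24% and 22.3%), where the share of higher genes was near that of all genes. TFRC, the transferrin receptor, was among the higher there, at 1133 to 1419 against 2961 to 3195 CPM, and HSPE1, a mitochondrial chaperonin, was at 49.6 to 68.7 against 88.6 to 116 CPM. Opposite directions in the 2 sets were shown by 14 of the 32 as deposited (9.42% of genes) and by 6 after TMM scaling (7.97%). Lower in both sets were 3 (5.49%), and 2 after TMM scaling (7.74%).

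Of 19 MYC cofactors and enzymes that set MYC stability, 2 were higher and 5 lower in the CD34-high set as deposited (16.6% and 19.9% of all genes) and 1 and 5 after TMM scaling (17.6% and 23.4%), shares near those of all genes. Without Kasumi-1 siMM-mod replicate 2 the counts were 5 and 7 as deposited (44.3% and 28.8%) and 3 and 12 after TMM scaling (32.3% and 45.8%). Of the same 19, 15 were higher and 1 lower in the CD34-low set (34.7% and 15.8%), and 10 and 1 after TMM scaling (24% and 22.3%). PIM1, a kinase that stabilises MYC, was at 8.87 to 11.7 CPM in the CD34-high set and, with higher and lower RUNX1T1, at 294 to 320 and 462 to 494 CPM in the CD34-low set. HUWE1, a ubiquitin ligase of MYC, was at 840 to 1160 against 776 to 817 CPM in the CD34-low set. Of 6 other MAX network genes, 4 had at least 600 reads in each set. In the CD34-high set 1 was higher and 1 lower with lower RUNX1T1 as deposited (16.6% and 19.9%), and 1 and 2 after TMM scaling (17.6% and 23.4%). Without Kasumi-1 siMM-mod replicate 2 these were again 1 and 1 (44.3% and 28.8%), and 1 and 2 after TMM scaling (32.3% and 45.8%). The CD34-low set had 1 and 1 (34.7% and 15.8%), then 0 and 2 (24% and 22.3%). MXI1, a further repressor, was the 1 lower in both sets on both scales (5.49% and 7.74% of genes). It was at 47.0 to 52.3 against 34.3 to 41.9 CPM and at 41.8 to 48.5 against 20.4 to 23.7 CPM. MLXIP was higher in the CD34-high set on both scales, at 99.1 to 124 against 132 to 148 CPM. In the CD34-low set MLXIP overlapped as deposited, at 120 to 161 against 121 to 148 CPM, and was lower without overlap after TMM scaling. MGA overlapped in both sets.

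Of 9 genes that MYC represses, 6 had at least 600 reads in the CD34-high set, of which 4 were higher and 0 lower with lower RUNX1T1 as deposited (16.6% and 19.9% of all genes) and 3 and 0 after TMM scaling (17.6% and 23.4%). Without Kasumi-1 siMM-mod replicate 2 it was 5 and 0 as deposited (44.3% and 28.8% of all genes) and 4 and 1 after TMM scaling (32.3% and 45.8%). The cell cycle inhibitor CDKN2C was at 55.9 to 68.7 against 83.9 to 96.0 CPM there and NDRG1, a stress-induced gene, at 16.9 to 21.8 against 34.1 to 37.5 CPM. CDKN1B, a further cell cycle inhibitor, was at 88.8 to 95.5 against 103 to 109 CPM, a separation lost after TMM scaling. Of the 8 tested in the CD34-low set, 2 were higher and 1 lower as deposited (34.7% and 15.8%) and 1 and 1 after TMM scaling (24% and 22.3%). The inhibitor CDKN1A had under 600 reads in the CD34-high set and is not in that count, with 1.21 to 1.79 against 0.07 to 0.16 CPM, and was at 1.45 to 3.27 against 6.76 to 8.81 CPM in the CD34-low set.

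Of 11 progenitor and myeloid genes that MYB activates, 8 were lower and 1 higher with lower RUNX1T1 in the CD34-low set, both as deposited (15.8% lower and 34.7% higher of all genes) and after TMM scaling (22.3% and 24%). The CD34-high set had 4 higher and 3 lower as deposited (16.6% and 19.9%) and 3 higher and 4 lower after TMM scaling (17.6% and 23.4%), so the balance turned with the scaling. Without Kasumi-1 siMM-mod replicate 2 it was 5 and 3 as deposited (44.3% and 28.8% of all genes) and 3 and 4 after TMM scaling (32.3% and 45.8%). MPO, the granule enzyme myeloperoxidase, was at 3642 to 5792 CPM with higher and at 1846 to 2278 CPM with lower RUNX1T1 in the CD34-low set, and CDK6, a G1 kinase, at 853 to 1143 against 551 to 573 CPM. AZU1, a granule protein, was at 263 to 382 against 635 to 940 CPM in the CD34-high set and at 39.7 to 56.1 against 29.6 to 35.5 CPM in the CD34-low set. KIT, the stem cell factor receptor, was at 466 to 556 against 111 to 131 CPM in the CD34-low set. KIT was also lower in the CD34-high set, at 847 to 936 against 671 to 733 CPM, as was CDK6, at 761 to 904 against 653 to 740 CPM, on both scales. MPO was higher there as deposited, at 9501 to 12378 against 13460 to 19319 CPM, and overlapped after TMM scaling. Across both sets, 1 of the 11 was higher, 3 lower and 2 opposite as deposited (7.73%, 5.49% and 9.42%), and 1, 4 and 1 after TMM scaling (6.09%, 7.74% and 7.97%). Of 8 MYB cofactors, 7 had at least 600 reads in each set, of which 2 were higher and 2 lower in the CD34-low set as deposited (34.7% and 15.8%) and 1 and 2 after TMM scaling (24% and 22.3%). In the CD34-high set it was 0 and 0 as deposited (16.6% and 19.9%), and 1 and 2 after TMM scaling (17.6% and 23.4%). Without Kasumi-1 siMM-mod replicate 2 the cofactors gave 2 and 1 as deposited (44.3% and 28.8%) and 1 and 4 after TMM scaling (32.3% and 45.8%). KMT2A, a histone methyltransferase, was at 315 to 437 against 259 to 279 CPM in the CD34-low set, and EP300, an acetyltransferase, at 151 to 196 against 189 to 207 CPM, with overlap.

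Late cell cycle genes showed the same directions as MYBL2. Of 14 measured targets of MYBL2 and MuvB, 11 were lower and 0 higher in the CD34-high set both as deposited (19.9% lower and 16.6% higher of all genes) and after TMM scaling (23.4% and 17.6%). Without Kasumi-1 siMM-mod replicate 2, 11 were lower and 1 higher as deposited (28.8% and 44.3%) and 13 and 0 after TMM scaling (45.8% and 32.3%). For the CD34-low set 11 were higher and 0 lower as deposited (34.7% and 15.8%), and 8 and 0 after TMM scaling (24% and 22.3%). Opposite directions in the 2 sets were shown by 10 of the 14 as deposited (9.42% of genes) and by 6 after TMM scaling (7.97%). The trait was not particular to this list, since 14 of the 32 MYC-activated genes also had it as deposited, and 6 after TMM scaling. PLK1, a mitotic kinase, was at 33.1 to 38.5 against 24.4 to 31.6 CPM in the CD34-high set and at 27.1 to 48.1 against 51.8 to 57.9 CPM in the CD34-low set. CDC20, an activator of the anaphase-promoting complex, was at 93.4 to 101 against 69.8 to 91.3 CPM and at 49.3 to 81.4 against 115 to 126 CPM. The CD34-high separation of CDC20 was lost after TMM scaling. FOXM1, which joins MYBL2 on these genes, overlapped in the CD34-high set and was at 44.4 to 77.5 against 101 to 110 CPM in the CD34-low set. Of 10 MuvB complex genes and partners, 7 were higher and 0 lower in the CD34-low set (34.7% and 15.8% of all genes), and 6 and 1 after TMM scaling (24% and 22.3%). The CD34-high set had 1 higher and 2 lower (16.6% and 19.9%), and 1 and 3 after TMM scaling (17.6% and 23.4%). Without Kasumi-1 siMM-mod replicate 2, 9 had enough reads, with 4 and 3 as deposited (44.3% and 28.8%) and 2 and 5 after TMM scaling (32.3% and 45.8%).

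The genes whose TMM-scaled log2 CPM over the 12 libraries was most like that of MYC, among 13995 genes, were ACTG1 (Pearson r of 0.98), ARMCX1 and TMEM94 (0.97 each). For MYB they were PDZD8 (0.98), CORO2A (0.97) and AC090559.1 (0.97). The 12 points share cell sets, depth and scaling, so these are descriptions.

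The comparison the study set out, siRE-mod against siMM-mod within a line, was made by label with edgeR's quasi-likelihood test. At an adjusted p of 0.05 it called 0 of 13608 genes in Kasumi-1 (0%) and 0 of 13628 in SKNO-1 (0%), with 2435 (17.9%) and 1455 (10.7%) at an unadjusted p under 0.05. DESeq2 with the same filter called 1158 (8.51%, with 1.62% higher and 6.89% lower) and 372 (2.73%, with 2.6% higher and 0.132% lower). Each labelled group mixed higher and lower RUNX1T1, and the label contrast also crossed the CD34 sets, since SKNO-1 siMM-mod lay wholly in the CD34-high set and Kasumi-1 siRE-mod wholly in the CD34-low set. Of the 10 genes, 9 were tested in each line, MYBL1 having 318 and 576 reads.

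MYC was lower in each library labelled siRE-mod than in each labelled siMM-mod in both lines. In Kasumi-1 it was at 593, 583 and 480 CPM in siMM-mod replicates 1 to 3 and at 343, 473 and 359 CPM in siRE-mod replicates 1 to 3. Its log2 fold change was -0.80 ± 0.21 (SE, n = 3 against 3, edgeR adjusted p = 0.252), and DESeq2 gave -0.82 ± 0.24 with an adjusted p of 0.0136. In SKNO-1 it was at 485, 457 and 433 CPM against 407, 398 and 304 CPM, with a log2 fold change of -0.43 ± 0.21 (edgeR adjusted p = 0.493). DESeq2 gave -0.45 ± 0.24 there (DESeq2 adjusted p = 0.381), and edgeR without SKNO-1 siRE-mod replicate 1 gave -0.52 ± 0.23 (edgeR adjusted p = 0.168). Leaving out Kasumi-1 siMM-mod replicate 3, the only CD34-low library among the controls of that line, gave -0.91 ± 0.21 for MYC (edgeR adjusted p = 0.0205), in a fit that called 32.2% of 13200 genes (16.5% higher and 15.7% lower). With that library out, label and CD34 set cannot be told apart in Kasumi-1. Leaving out any other single Kasumi-1 library gave MYC an edgeR adjusted p between 0.131 and 0.700.

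MYCN had the widest label difference, at -6.38 ± 1.65 in Kasumi-1 (edgeR adjusted p = 0.252) and -3.05 ± 1.51 in SKNO-1 (edgeR adjusted p = 0.499) on the log2 scale, and it is the gene that followed CD34. In Kasumi-1, DESeq2 gave -6.44 ± 1.26 with an adjusted p of 4.89e-05, and the fit without siMM-mod replicate 3 gave -6.93 ± 0.73 (edgeR adjusted p = 0.00169). For SKNO-1, DESeq2 gave -3.04 ± 1.24 and no adjusted p. In SKNO-1 without siRE-mod replicate 1, the only CD34-high library among those labelled siRE-mod, it was -6.77 ± 0.81 (edgeR adjusted p = 0.003) in a fit that called 19.3% of 13119 genes (10.8% higher and 8.55% lower), again with label and CD34 set not separable. MAX was at 0.23 ± 0.21 and 0.31 ± 0.20, MYB at -0.14 ± 0.22 and 0.13 ± 0.30, and MYBL2 at 0.01 ± 0.21 and -0.31 ± 0.33 in Kasumi-1 and SKNO-1. The edgeR adjusted p of MAX, MYB, MYBL2 and the 4 repressors was 0.558 or more in both lines. By non-overlap of deposited CPM, 1 gene (MNT, an order lost after TMM scaling) was higher and 2 (MYC and MYCN) lower in Kasumi-1, against 31.7% and 3.65% of genes, and 1 (MAX) was higher and 2 (MYC and MYCN) lower in SKNO-1, against 6.04% and 5.03%. MYCN reached 600 reads in each line through its CD34-high libraries, so nothing is read from its place in these counts. Its adjusted p-values above, by either tool or with a library left out, are likewise not read as a result of the label. TMM scaling turned the Kasumi-1 background into 9.71% higher and 11.9% lower, and that of SKNO-1 into 5.62% and 6.46%.

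**Figure D3:**
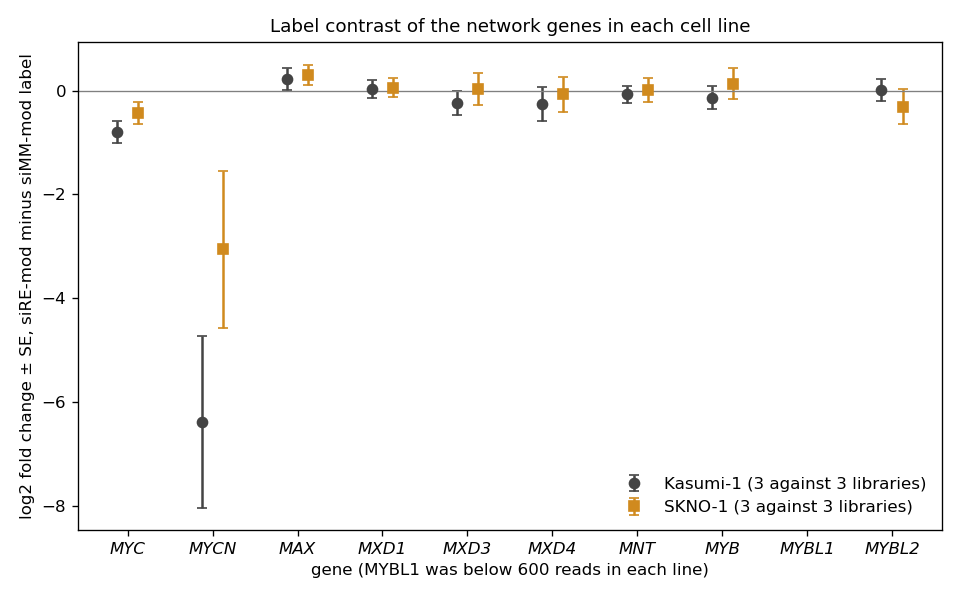
Log2 fold change ± SE between libraries labelled siRE-mod and siMM-mod (edgeR, 3 against 3) for each gene in Kasumi-1 (grey circles) and SKNO-1 (orange squares). MYC and MYCN lie below 0 in both lines, MYCN with the widest error, and the rest lie within 0.5 of 0.

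Whether the label contrast differed between lines was tested by an interaction over the 12 libraries. At an adjusted p of 0.05 edgeR called 0 of 15863 genes (0%), with 106 (0.668%) at an unadjusted p under 0.05. DESeq2 called 127 (0.801%) at an adjusted p under 0.05, of which 127 were higher and 0 lower. For MYC the difference, SKNO-1 minus Kasumi-1, was 0.37 ± 0.29 on the log2 scale and for MYB 0.27 ± 0.38 (edgeR adjusted p = 1 for both).

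In the 4 libraries from mice, all 10 genes were listed at 0. In the first siMM-mod library, 5571 of 24503879 listed reads lay on genes, spread over 14 genes, so these tables carry no level for the network.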

How the data were processed

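Count tables of the 12 in vitro libraries were analysed. The authors trimmed reads with Trim Galore 0.6.5, aligned them to GRCh38 with STAR 2.7.10a and counted reads over exons per gene, and the file headers name Rsubread 1.32.4. The deposited counts are raw. The deposited CPM are those counts scaled to a common number of reads on genes, and the deposited FPKM are also divided by exon length. The deposited in vivo tables hold counts in another layout.

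Raw counts were tested with edgeR 4.0.16 in R 4.3.3 (TMM, quasi-likelihood with robust estimation) after removal of genes whose reads summed to under 600 in a fit, Benjamini-Hochberg adjusted at 0.05. Alternatives were DESeq2 1.42.0, its size factors, 2 other filters, a replicate block, a joint fit of the 12 libraries, and leaving out single libraries. Values per library are deposited CPM. TMM and size factor scaling of these, and leaving out Kasumi-1 siMM-mod replicate 2 there, were added after the deposited values were seen. Non-overlap counts lead with deposited CPM because the gene rule names CPM, and since results on both scales were known when this was settled, both are printed. An exact permutation test of 3 libraries against 3 was not run, its smallest two-sided p being 0.1.

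The members and lists were chosen with earlier results of these data known. Named were the 10 members, CD34, RUNX1T1 and IL5RA, up to 4 genes of each list (the 2 highest median CPM and the 2 widest ranges), and the 3 genes most correlated with MYC and with MYB. KIF23, on the list of MYBL2 targets, was not analysed here. On simulated counts with 200 changed genes, 191 (Kasumi-1, 13608 genes), 196 (SKNO-1, 13628 genes) and 164 (difference of the lines, 15863 genes) were recovered with a dispersion of 0.02. The real common dispersion was 0.197, 0.246 and 0.241, so power is not given by this. Protein sequences were not used.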

Additional observations from a re-analysis of the deposited data

How the results depend on the processing

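Under other settings, 162 of 175 values kept their direction and side of the threshold, as did 217 of 251 when a single library was dropped. The number of genes called by label depended on the tool: DESeq2 called 1158 (Kasumi-1), 372 (SKNO-1) and 127 (difference between lines) where edgeR called 0, and the cause was not tested. With 1 library left out the counts ran from 0 to 4250 in Kasumi-1 (4250 without siMM-mod replicate 3), from 0 to 2535 in SKNO-1 (2535 without siRE-mod replicate 1) and stayed at 0 for the difference.

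Log2 changes near 0 turned sign. In Kasumi-1, MYBL2 was -0.01 by DESeq2 and with its size factors (both -0.0082) and -0.030 with filterByExpr, where MXD1 was -0.022. In SKNO-1, MNT was -0.01 by DESeq2 and with its size factors (-0.0091 each). For the difference between lines, MXD1 was -0.0017 without a filter. With 1 library left out, Kasumi-1 values ran from -0.46 to 0.12 for MXD4, -0.13 to 0.017 for MNT, -0.29 to 0.11 for MYB, -0.065 to 0.15 for MXD1 and -0.14 to 0.14 for MYBL2. SKNO-1 values ran from -0.22 to 0.20 for MXD3, -0.093 to 0.44 for MYB, -0.055 to 0.10 for MNT and -0.31 to 0.22 for MXD4. Differences between lines ran from -0.10 to 0.25 for MAX, -0.081 to 0.13 for MXD1, -0.19 to 0.49 for MXD4, -0.38 to 3.91 for MYCN and -0.85 to 1.85 for MYBL1. MYC stayed below 0, between -0.98 and -0.68 in Kasumi-1 and between -0.53 and -0.27 in SKNO-1.

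Replicate numbers did not pair the libraries (correlations of -0.018, -0.272 and -0.013 for Kasumi-1, then -0.133, -0.021 and -0.246 for SKNO-1). The fit with the replicate block called 0 genes in each comparison, gave MYC -0.81 in Kasumi-1 and -0.44 in SKNO-1, and turned the difference of MYBL1 to -0.24.

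TMM factors ran from 0.854 to 1.19 and shifted all genes, on the log2 scale of deposited minus TMM-scaled values, by 0.31 between labels in Kasumi-1, 0.12 in SKNO-1, 0.14 by RUNX1T1 in the CD34-low set and -0.16 between the CD34-high and CD34-low sets. MYCN and MYBL1 in the CD34-low set are limited by their few reads.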
